A study of Mus musculus with 35 samples.

Results

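The comparison described here set the hypothalamus of fasted PER2-S662D mice (n = 5) against that of fasted control mice (n = 10), which made up 15 of the 35 libraries of the series. The libraries were chosen by their labels alone. All 15 came from male mice of strain B6/J that had no food for 16 h from lights-on and were killed at Zeitgeber time 16, that is 16 h after lights-on. The genotype labels read PER2-S662D and Control, and how the allele was made or whether the controls were littermates is not given in the sources used here. PolyA RNA was sequenced from a dissected block of tissue, and the values are raw counts of fragments per gene, given as CPM, counts scaled to a common library total, after TMM scaling of the library sizes. The tissue label was checked against hypothalamic peptides. Hcrt, which encodes orexin and marks the lateral hypothalamus, lay at 87.3 to 125 CPM in the controls and at 77.2 to 97.3 CPM in the S662D mice. Pmch, which encodes melanin-concentrating hormone of the same region, lay at 94.4 to 124 CPM and at 59.0 to 114 CPM. Pomc, of the arcuate nucleus, lay at 10.3 to 27.9 CPM and at 12.1 to 22.8 CPM.

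PER2 is a repressor of the circadian clock. The activators CLOCK and BMAL1 bind E-box sequences and drive the Per, Cry and Nr1d genes, whose proteins then hold the activators back, and a further layer of genes driven through D-boxes by DBP and TEF and through ROR elements by ROR and REV-ERB proteins carries the rhythm to other processes. Casein kinases phosphorylate PER2 at a cluster of serines that begins with the serine altered in people with familial advanced sleep phase, and this sets how long the protein lasts. In PER2-S662D an aspartate, whose charge resembles that of a phosphorylated serine, stands at this place. The hypothalamus holds the suprachiasmatic nucleus, the master clock, but also the centres of feeding, temperature and hormone control, so a block of it averages many cell types, and fewer cells of a type and less RNA per cell cannot be told apart in such data.

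The stretches before the transcription start of 5 genes of the results below are shown first, since they hold the clock motifs searched for. The windows were the 250 bases before each start in the RefSeq promoter table (GRCm38.p6), and only bases outside annotated exons are printed, 5′ to 3′ on the strand of the gene. Capitals mark a motif. The E-box was searched as CACGTG and the D-box as TTATGTAA, with TTACGTAA accepted as well. The core of the ROR element was searched as TAGGTCA, and matches with G at its second base were accepted as well. Both strands were searched, and the capitals in the Fabp7 stretch are the ROR core read on the other strand. None of these words holds another, so a match to one motif is not a match to the next.
Ciart (repressor of the clock; chr3:95882252-95882478, minus strand): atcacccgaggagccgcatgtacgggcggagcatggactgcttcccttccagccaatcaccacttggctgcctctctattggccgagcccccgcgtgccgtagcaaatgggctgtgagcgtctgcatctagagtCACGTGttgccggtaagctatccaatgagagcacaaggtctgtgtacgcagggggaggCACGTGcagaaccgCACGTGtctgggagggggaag
Cry1 (repressor of the clock; chr10:85185065-85185304, minus strand): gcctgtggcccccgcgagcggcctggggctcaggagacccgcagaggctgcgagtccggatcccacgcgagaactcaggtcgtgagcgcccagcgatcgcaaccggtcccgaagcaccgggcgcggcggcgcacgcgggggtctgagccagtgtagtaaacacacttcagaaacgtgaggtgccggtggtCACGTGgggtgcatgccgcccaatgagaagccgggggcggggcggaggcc
Tef (D-box activator, downstream start; chr15:81811164-81811413, plus strand): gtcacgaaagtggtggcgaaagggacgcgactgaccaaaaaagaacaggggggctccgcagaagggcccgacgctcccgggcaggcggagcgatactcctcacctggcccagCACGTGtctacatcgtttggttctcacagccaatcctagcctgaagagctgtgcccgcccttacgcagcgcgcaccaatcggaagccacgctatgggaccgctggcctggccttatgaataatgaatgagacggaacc
Per3 (paralogue of Per2; chr4:151044666-151044915, minus strand): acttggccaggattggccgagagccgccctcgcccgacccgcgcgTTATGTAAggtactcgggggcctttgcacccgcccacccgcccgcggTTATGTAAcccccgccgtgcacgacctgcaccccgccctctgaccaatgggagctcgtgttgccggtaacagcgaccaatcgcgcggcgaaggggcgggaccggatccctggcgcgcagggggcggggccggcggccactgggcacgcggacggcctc
Fabp7 (fatty acid-binding protein of glia; chr10:57784673-57784880, plus strand): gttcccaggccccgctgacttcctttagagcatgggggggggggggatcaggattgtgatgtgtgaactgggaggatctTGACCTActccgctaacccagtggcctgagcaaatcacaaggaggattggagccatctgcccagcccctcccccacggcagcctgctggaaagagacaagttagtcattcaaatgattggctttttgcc
Of the 33 genes that were called against both sets of controls (below), 23 had a promoter entry. An E-box lay in 3 of these (Ciart at 116, 58 and 44 bases before the start, Cry1 at 60, and Tef), a D-box in 1 (Per3 at 205 and 158) and a ROR core in 2 (Fabp7 at 171 and Nfil3 at 12). Over all 32851 promoter windows of the same length, 6.02% held the E-box, 0.931% the D-box and 5.38% the ROR core. Where no match was found, these letters were not in this window, and nothing more follows.

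Libraries that stand apart bear on every count below. Total counts were 17959586 to 22036714 in the controls and 21615313 to 34081435 in the S662D mice, and mitochondrial genes took 6.81% to 8.70% and 6.85% to 8.27% of them. Per the file headers, controls 1 to 5, controls 6 to 10 and the S662D mice have library numbers from 3 ranges that do not mix, so a difference of genotype and one between ranges cannot be told apart. S662D replicates 2, 3 and 4 also carry an additional final digit in that number, for which no meaning is given, and replicates 1 and 5 do not. The library sets were therefore also taken separately, as S662D against controls 1 to 5, against controls 6 to 10, the 2 S662D libraries without the digit against all controls, and the 3 with it against all controls. Counts of called genes from these sets stand beside the lists that follow.

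The 18063 genes with enough counts were tested with edgeR (quasi-likelihood F test, Benjamini-Hochberg adjustment), and those with an adjusted p under 0.05 are named called. In all, 1007 genes were called (5.57%), and 3757 had an unadjusted p below 0.05. The library sets gave other counts: 1680 genes against controls 1 to 5 (9.45%, with 5.64% higher and 3.81% lower), 48 against controls 6 to 10 (0.269%, with 0.135% in each direction), 21 with the S662D libraries without the digit (0.112%, with 0.0267% higher and 0.0854% lower) and 3148 with those that carry it (17.1%, with 9.97% higher and 7.12% lower). Of the 1007 genes, 709 were also called against controls 1 to 5, 43 against controls 6 to 10, 17 without the digit and 976 with it. Leaving out S662D replicate 2, 3 or 4, each with the digit, lowered the count to 220, 296 and 154, and leaving out replicate 1 or 5 raised it to 1802 and 1590. Of the called genes 60.1% were higher in S662D mice, but only 25.3% were when libraries were scaled by their totals alone, and the median log2 fold change of all genes moved from 0.00 to −0.04. What the digit and the library ranges contribute to these counts was not tested beyond these splits.

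**Figure D1:**
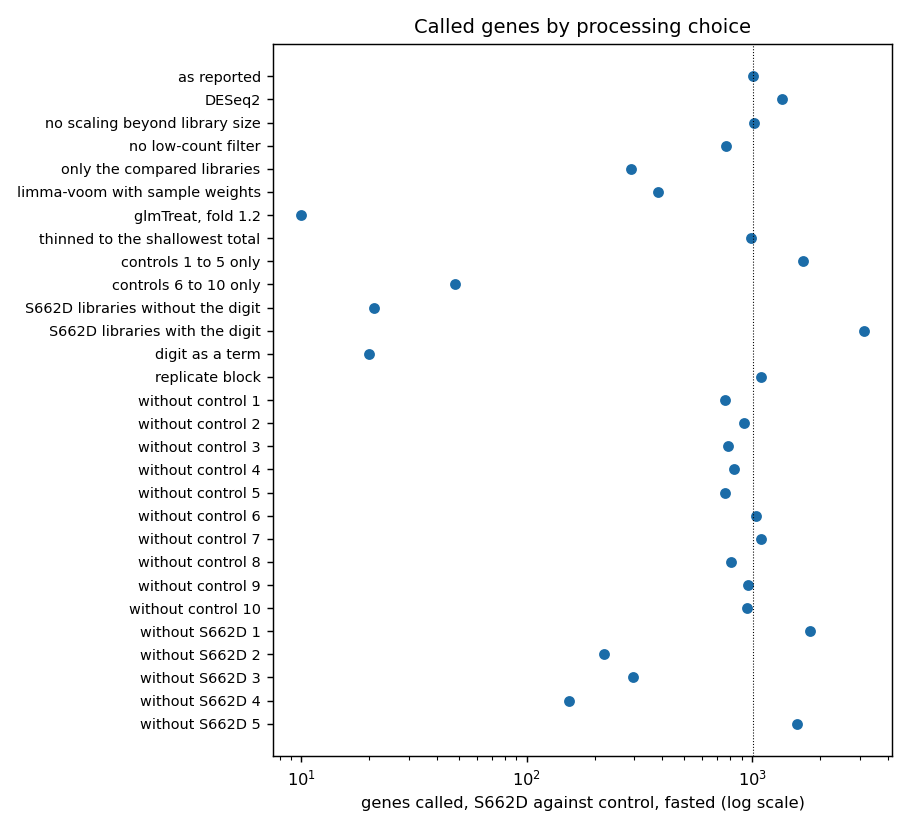
Number of genes called in fasted S662D against fasted control mice (x axis, log scale) under each processing choice (y axis), with the reported count of 1007 as a dotted line. The counts run from 10 when a fold of 1.2 was tested to 3148 with the 3 S662D libraries that carry the additional digit.

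Against both sets of controls, 33 genes were called with the same sign, 17 higher and 16 lower in S662D mice. Of these, 9 were clock genes and 24 lay outside the clock lists. A further requirement, that the gene be called with each of the 2 sets of S662D libraries, left 14 genes: 7 clock genes (Per2, Per3, Ciart, Cry1, Nr1d2, Arntl and Tef) and 7 others (BC030499, Plk5, Il34, Mthfd1l, Id2, Fabp7 and Mmp14). In 12 of the 14 the 5 S662D values lay outside the range of the 10 controls. Of all genes tested 0.515% did so, but the 14 were chosen by calls on these same libraries, and the count is a description of that choice. The fed mice of both genotypes share no library with the fasted ones, and there all 14 were called with the same sign, where 4.69% of all genes were called, 3.12% higher and 1.57% lower.

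**Figure D2:**
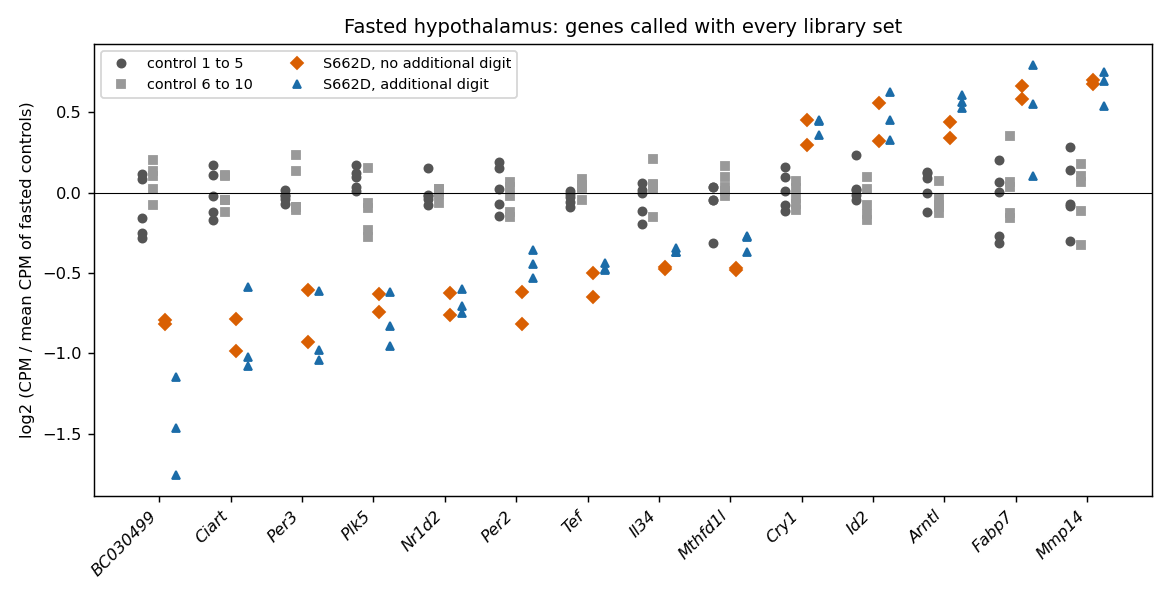
Level of the 14 genes called with every library set, as log2 of the CPM of each library over the mean CPM of the 10 fasted controls (y axis), ordered by log2 fold change; dark circles are controls 1 to 5, light squares controls 6 to 10, orange diamonds the 2 S662D libraries without the additional digit and blue triangles the 3 with it. The S662D points lie on one side of all controls in 12 genes, and in Fabp7 and Mthfd1l they overlap them.

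Of the clock repressors, Per2 itself (chr1:91415982-91459324, minus strand) held 16.4, 20.1, 21.3, 22.7 and 18.9 CPM in S662D replicates 1 to 5, against 26.1, 29.0 and 33.1 CPM as the lowest, median and highest of the controls. All 5 S662D libraries lay below the lowest control. The log2 fold change was −0.55 (adjusted p 6.80e-07, SE 0.07). Its paralogue Per3 (chr4:151003652-151044665, minus strand), whose D-boxes are printed above, held 27.4, 20.3, 21.2, 27.3 and 21.9 CPM against 38.7, 40.9 and 49.2 CPM. It was lower by more than Per2, at −0.82 (adjusted p 1.99e-11, SE 0.07), and again no S662D library reached the controls. Ciart (chr3:95878503-95882251, minus strand), which encodes a repressor of CLOCK and BMAL1, held 7.05, 9.28, 6.60, 6.85 and 8.09 CPM against 12.4, 13.6 and 15.7 CPM. Its log2 fold change was −0.88 (adjusted p 2.34e-08, SE 0.09), and 11.9% of its 50-base words occur in other transcripts, so its counts are uncertain.

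Cry1 (chr10:85131700-85185064, minus strand), the partner of PER2 in the repressor complex, went the other way. Its levels were 36.6, 34.3, 36.4, 36.5 and 32.8 CPM in the S662D libraries and 24.7, 26.5 and 29.9 CPM in the controls, with no overlap, and the log2 fold change was 0.40 (adjusted p 7.58e-07, SE 0.05). Per1 at −0.09 and Cry2 at 0.09 were not called. Over the repressor list, 3 of 6 genes were called lower and 1 higher, where 2.23% of all genes tested were called lower and 3.35% higher. The counts were 3 lower and 2 higher against controls 1 to 5, where 3.81% of all genes were lower and 5.64% higher. They were 3 lower and 1 higher against controls 6 to 10, where 0.135% of all genes were called in each direction.

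Among the genes that drive the clock, Arntl (chr7:113207465-113314126, plus strand), which encodes BMAL1, held 28.1, 31.9, 33.7, 32.6 and 30.1 CPM in S662D mice against 20.3, 21.8 and 24.1 CPM in the controls. All S662D values were higher than every control, and the log2 fold change was 0.50 (adjusted p 4.19e-08, SE 0.05). Nr1d2 (chr14:18204054-18239127, minus strand), which encodes REV-ERBβ, a repressor that acts on ROR elements, held 83.7, 78.8, 76.6, 85.2 and 76.0 CPM against 122.0, 127.9 and 143.5 CPM. Its log2 fold change of −0.69 (SE 0.05) had the lowest adjusted p of the 14 genes, 1.09e-13. Npas2, a relative of CLOCK, was called higher at 0.54, but its value was 0.19 in the libraries without the digit and 0.74 in those with it. Clock, Nr1d1 and Rora were not called, with log2 fold changes of 0.01, −0.06 and 0.15.

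Of the output factors, Tef (chr15:81802421-81826861, plus strand), an activator at D-boxes, held 211.7, 215.3, 213.7, 221.0 and 190.7 CPM against 280.6, 299.8 and 317.7 CPM. No S662D library came near the controls, and the log2 fold change was −0.51 (adjusted p 3.04e-13, SE 0.04). Dbp, a relative of Tef, was lower at −0.57 (adjusted p 0.00575), with replicate 1 at 46.3 CPM inside the control range of 43.5 to 76.8 CPM, and 18.01% of its exon bases overlap Sphk2. Nfil3, a repressor at D-boxes, was higher at 0.44 (adjusted p 0.00341), with 0.21 without the digit and 0.58 with it. Hlf at −0.03, Usp2 at −0.14 and Bhlhe40 at −0.04 were not called. In all, 12 of 24 clock genes were called, 4 higher and 8 lower, where 5.57% of all genes tested were called. The count was 8 with the S662D libraries without the digit (2 higher, 6 lower), where 0.112% of all genes were called. It was 13 with those that carry it (5 higher, 8 lower), where 17.1% of all genes were called. In fed mice it was 13 (4 higher, 9 lower), where 4.69% of all genes were called. With controls 1 to 5 alone 12 were called (5 higher, 7 lower), against 9.45% of all genes. With controls 6 to 10 alone 9 were called (3 higher, 6 lower), against 0.269% of all genes.

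The 7 other genes called with every library set differ widely in what they encode. BC030499 (chr11:78290841-78296805, plus strand), for which no role is given here, showed the largest change of the 14. It held 3.08, 1.97, 2.45, 1.61 and 3.14 CPM in S662D replicates 1 to 5 against 4.48, 5.64 and 6.27 CPM as the lowest, median and highest control. All S662D libraries lay below the controls, and the 3 with the digit lay lowest. The log2 fold change was −1.13 (adjusted p 2.12e-06, SE 0.15), with −0.80 without the digit and −1.43 with it, and −0.86 in fed mice. Plk5 (chr10:80356459-80365489, plus strand), of the polo-like kinase family, held 8.91, 7.11, 8.96, 7.75 and 8.24 CPM against 11.4, 14.0 and 15.5 CPM. The groups did not overlap, and the log2 fold change was −0.75 (adjusted p 2.41e-05, SE 0.11), with −0.68 without the digit and −0.84 in fed mice.

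Il34 (chr8:110741829-110805924, minus strand) encodes a ligand of the CSF1 receptor, on which microglia depend. Its levels were 15.8, 16.9, 16.9, 17.2 and 15.7 CPM in S662D mice and 19.0, 22.1 and 25.3 CPM in the controls. Every S662D library was lower than every control, by a log2 fold change of −0.41 (adjusted p 1.33e-05, SE 0.06). Of 16 markers of microglia and macrophages, Csf1r among them at 0.11, 0 were called (2 higher against controls 1 to 5), and their summed level was 306 to 426.5 CPM in the controls and 344.3 to 396.1 CPM in S662D mice. Mthfd1l (chr10:3973118-4167081, plus strand), an enzyme of mitochondrial folate metabolism, held 14.4, 16.6, 15.6, 16.6 and 14.5 CPM against 16.1, 20.4 and 22.6 CPM. Here the groups met, since 1 control, replicate 2, lay among the S662D values while the other 9 lay above them. The log2 fold change was −0.37 (adjusted p 0.000452, SE 0.06).

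Id2 (chr12:25093801-25096092, minus strand) encodes an inhibitor of helix-loop-helix factors that BMP signals induce and that is itself rhythmic in many tissues. It held 59.0, 73.0, 64.7, 59.3 and 69.6 CPM in S662D mice against 42.0, 47.4 and 55.5 CPM in the controls. All S662D values were higher, by a log2 fold change of 0.46 (adjusted p 1.25e-05, SE 0.06), with 0.45 without the digit, 0.48 with it and 0.32 in fed mice. Mmp14 (chr14:54431612-54441265, plus strand), a metalloprotease anchored in the cell membrane, held 17.1, 17.0, 15.3, 17.7 and 16.8 CPM against 8.40, 10.5 and 12.8 CPM. Every S662D library lay above every control, and the log2 fold change was 0.68 (adjusted p 6.39e-07, SE 0.08). Without the digit it was 0.69 and with it 0.67. The medians of the endothelial and pericyte lists were 0.04 and −0.04 without the digit and 0.31 and 0.40 with it. What the content of vascular cells contributes to the Mmp14 values was not tested.

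Fabp7 (chr10:57784881-57788450, plus strand) encodes the brain fatty acid-binding protein of astrocytes and radial glia, and its ROR core is printed above. It held 17.0, 15.8, 11.6, 18.7 and 16.1 CPM in S662D replicates 1 to 5 against 8.64, 10.9 and 13.8 CPM in the controls. Replicate 3 lay within the control range and the other 4 lay above it. The log2 fold change was 0.56 (adjusted p 0.00103, SE 0.10), and with the digit as a term it was 0.51 and no longer called (adjusted p 0.0550). In fed mice the log2 fold change was 0.94, and the difference between the feeding states was −0.38 with an adjusted p of 0.762. Of 15 astrocyte markers and 12 tanycyte markers, 0 were called, and the summed astrocyte markers lay at 4600 to 5073 CPM in the controls and at 4764 to 5267 CPM in S662D mice. Among the other 9 fatty acid-binding and lipid carrier genes tested, Fabp5 at −0.12, Fabp3 at −0.04 and Apoe at 0.12 included, 0 were called.

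A further 17 genes outside the clock lists were called against both sets of controls but not with each S662D set. Epor (chr9:21958897-21963506), which encodes the erythropoietin receptor, held 2.34, 2.63, 1.78, 2.41 and 2.49 CPM in S662D mice against 3.00, 3.65 and 4.40 CPM in the controls. The groups did not overlap, and the log2 fold change was −0.67 (adjusted p 0.00103, SE 0.12), with −0.62 without the digit, −0.70 with it and −0.61 in fed mice. Thpo (chr16:20725158-20734511), which encodes thrombopoietin, held 2.68, 1.39, 1.34, 1.51 and 2.46 CPM against 2.17, 3.33 and 3.84 CPM. Here the libraries divided, with the 3 that carry the digit below every control and the 2 others inside their range. The log2 fold change was −0.76 (adjusted p 0.00377), with −0.33 without the digit, −1.19 with it and −0.36 in fed mice, where it was not called (adjusted p 0.170).

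Among the rises of this kind, Kank1 (chr19:25236975-25434496), which encodes an ankyrin repeat protein of the cell cortex, held 33.7, 40.4, 45.4, 43.8 and 37.4 CPM against 26.3, 28.4 and 32.5 CPM. All S662D libraries lay above the controls, those with the digit highest, and the log2 fold change was 0.48 (adjusted p 1.25e-06, SE 0.06). Tjap1 (chr17:46257851-46283026), which encodes a protein of tight junctions, held 24.9, 24.1, 25.7, 27.9 and 24.2 CPM against 16.2, 19.6 and 21.02 CPM. Both library sets were close for this gene, at 0.38 without the digit and 0.45 with it, and the log2 fold change was 0.42 (adjusted p 8.45e-05, SE 0.06). Gpr179 (0.64), an orphan receptor of retinal bipolar cells, Pex6 (0.28), an ATPase of peroxisome assembly, Cacng2 (0.24), the AMPA receptor subunit stargazin, and Wbscr17 (0.26), a glycosyltransferase, were also higher. Col15a1 (−0.44), a basement membrane collagen, Cpne7 (−0.34), a copine, and Mir124a-1hg (−0.28), a host gene of the neuronal miR-124, were lower.

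In this group of 17 the value with the digit was often the larger one. For Mir124a-1hg it was −0.43 against −0.09 without the digit, and for Cpne7 −0.47 against −0.17. Gpr17, a receptor of newly forming oligodendrocytes, had 0.45 against 0.18. Also in this group were Sdccag3 (−0.29) and Tril (0.24), whose exons overlap other genes over 24.4% and 21.4% of their bases, and Msl1 and Csdc2 (each 0.23), which lay outside the rule for named genes and were chosen after their values were seen. Of the 33 genes as a whole, 29 were called in fed mice with the same sign, where 4.69% of all genes tested were called. The 4 that were not were Thpo, Col15a1, Mir124a-1hg and Csdc2.

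The largest changes elsewhere were in genes of low level. Glt8d2 (chr10:82650433-82690650), a putative glycosyltransferase, held 0.949, 0.773, 0.758, 0.567 and 1.04 CPM against 1.11, 1.66 and 2.11 CPM. All 5 S662D libraries were lower than the controls, and the log2 fold change was −1.0 (adjusted p 0.00151, SE 0.19), with −0.74 without the digit and −1.24 with it. Frem2 (chr3:53513938-53657355), an extracellular protein of basement membranes, held 3.79, 2.32, 4.19, 3.64 and 3.44 CPM against 1.02, 2.10 and 2.65 CPM. Replicate 2 lay inside the control range and the other 4 above it, and the log2 fold change was 0.80 (adjusted p 0.00384, SE 0.17), with 0.71 in fed mice. Gm15777 and Gm17638, a pair of predicted genes, were lower at −0.79 and −0.82 with no overlap, and were not called in fed mice; Gm17638 shares 43.4% of its 50-base words with other transcripts. The guanylate cyclase gene Gucy2f was called higher at 0.70 (adjusted p 0.0464), a call kept in 7 of 28 alternatives and lost without scaling.

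Genes of feeding and metabolism were of interest in fasted mice. Of 20 feeding peptides and receptors, 0 were called, with a median log2 fold change of −0.07 against 0.00 over all genes tested. Pmch at −0.39 (adjusted p 0.0535) and Hcrt at −0.31 (adjusted p 0.0660) came closest, and Agrp was at −0.31 (adjusted p 0.360). Pmch differed between the S662D sets, at −0.08 without the digit and −0.64 with it, and without scaling beyond library size 3 genes of this list were called lower, as were 3 with the digit and 1 against controls 1 to 5. Scg2, the secretogranin of peptide granules, was the 1 gene called among 23 other hypothalamic peptides, at −0.19 (adjusted p 0.00979), and it lost the call without S662D replicate 4. Avp at 0.33 (adjusted p 0.199) was not called.

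In lipid metabolism, 2 of 24 sterol synthesis genes were called lower (8.33%), Msmo1 at −0.20 and Sc5d at −0.13. Of 23 genes of fatty acid synthesis 3 were called higher (13%), Fasn at 0.21, Tecr at 0.15 and Scd2 at 0.13. Over all genes tested 2.23% were called lower and 3.35% higher. Fasn, the fatty acid synthase, held 310.3, 383.2, 400.4, 394.8 and 345.1 CPM against 299.2, 312.4 and 350.1 CPM. The 3 libraries with the digit lay above all controls and the 2 others within their range. Without scaling beyond library size the 3 fatty acid calls were lost and 5 sterol genes were called lower, and without the digit 0 genes of either list were called. Each list had 1 call when controls 1 to 5 were used alone. With controls 6 to 10 the sterol list had 0 and the fatty acid list 1. Of 22 fatty acid oxidation genes and 25 glycolytic genes, 0 were called. Against controls 1 to 5, 1 gene of oxidation was lower and 3 of glycolysis were higher, with 3 and 4 higher with the digit. Ldha at −0.16 (adjusted p 0.0506) fell just short of the threshold.

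Fasting raises glucocorticoids, and the targets of their receptor were read for that reason. Of 18 such genes 0 were called (2 higher with the digit), and the median over the list varied between S662D libraries. It was −0.57, 0.31, 0.34, 0.11 and 0.05 on the log2 scale in replicates 1 to 5, relative to the mean of the controls, where the controls spanned −0.30 to 0.31. Replicate 1 lay below all controls and replicate 3 above them. Of 21 early genes of neuronal activity, 0 were called, with 2 higher against controls 1 to 5. Of 26 genes of the unfolded protein response, Calr was called higher at 0.18, a call lost without scaling and against controls 6 to 10, and 3 of the list were higher against controls 1 to 5. The co-chaperone Bag3 held 11.1, 17.7, 15.6, 19.2 and 12.5 CPM against 8.96, 10.9 and 12.7 CPM, with the 3 libraries with the digit above all controls and the others within their range. The log2 fold change of Bag3 was 0.49 (adjusted p 0.00397, SE 0.10), with 0.14 without the digit, 0.70 with it and 0.44 in fed mice.

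**Figure D3:**
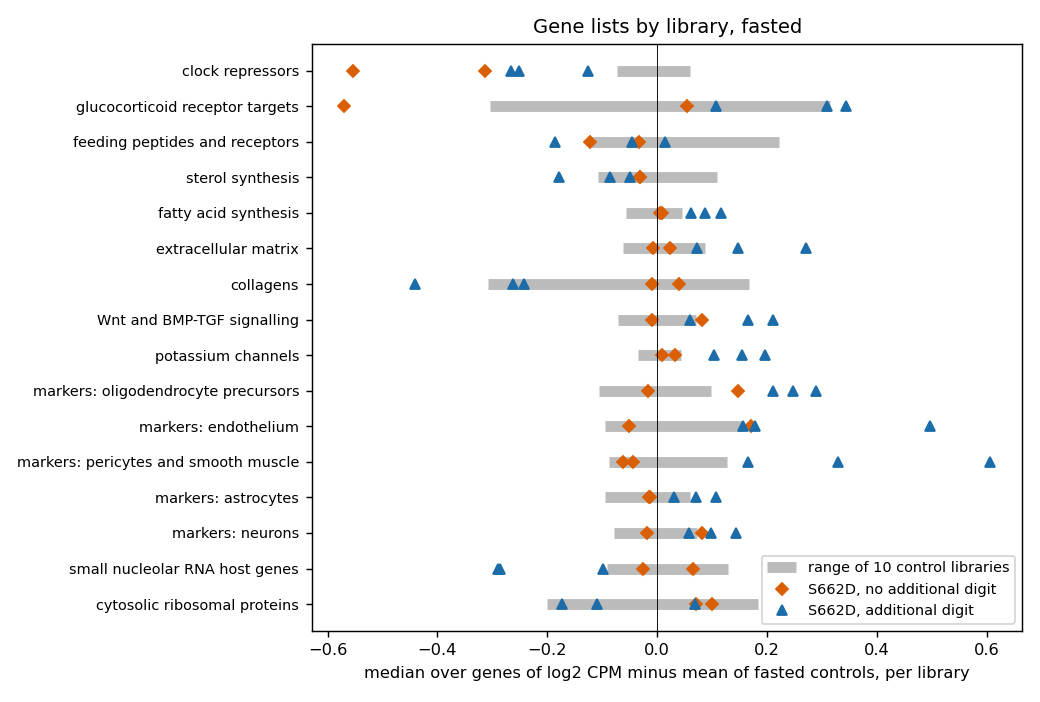
Median over the genes of a list of log2 CPM minus the mean of the 10 fasted controls (x axis), for each S662D library and 16 gene lists (y axis); grey bars are the range of the 10 control libraries, orange diamonds the S662D libraries without the additional digit and blue triangles those with it. For potassium channels only the 3 libraries with the digit lie above all controls. For oligodendrocyte precursor markers these 3 and replicate 5, which has no digit, lie above all controls. Clock repressors lie below the controls in all 5 S662D libraries.

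Of 18 genes that encode the kinases and ligases of PER2, 0 were called, with Csnk1d at 0.03, Csnk1e at −0.07 and Gsk3b at 0.16 (adjusted p 0.0564). Without scaling 3 were called lower. With the digit 2 of the 18 were higher and 2 lower, and against controls 1 to 5, 1 was lower. In Wnt and BMP signalling, 3 of 33 genes were called higher (9.09%, where 3.35% of all genes tested were) and 0 lower. These were Id2, Nkd1 (0.35, adjusted p 0.00327), an antagonist of Wnt signals, and Smad7 (0.27), an inhibitor of TGF-β signals. Nkd1 held 32.2, 33.9, 28.7, 36.2 and 28.1 CPM against 19.8, 24.1 and 28.8 CPM, with 3 S662D libraries above all controls. The Wnt and BMP list had 3 higher and 1 lower with controls 1 to 5, and 1 higher and 0 lower with controls 6 to 10. Without the digit 1 of the list was called higher, and with it 10 (0.0267% and 9.97% of all genes). Nkd1 and Smad7 were not called against controls 6 to 10, without the digit or in fed mice. Of 21 Notch and Hedgehog genes 0 were called (4 higher with the digit). Of 43 extracellular matrix genes 4 were called higher and 1 lower (11.6%, where 5.57% of all genes tested were called). The rises were Mmp14, the proteoglycan Ncan (0.31), the laminin Lamb2 (0.27, lost without scaling) and the collagen-modifying enzyme Plod1 (0.24). Agrn (−0.19) had the opposite sign. Without the digit, Mmp14 alone remained of these, and with it 11 were called higher and 4 lower. Matrix genes called with controls 1 to 5 were 3 higher and 2 lower, and with controls 6 to 10, 1 higher and 0 lower.

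Markers of other cell types in the block moved with part of the libraries. Of 12 markers of oligodendrocyte precursors 6 were called higher (50%, where 3.35% of all genes tested were). These were Cspg4 (0.38), Sox10 (0.36), Gpr17 (0.35), C1ql1 (0.31), Olig1 (0.30) and Olig2 (0.26), of which 5 were called without scaling, while Pdgfra at 0.11 was not called. The list median in S662D replicates 1 to 5 was −0.02, 0.21, 0.25, 0.29 and 0.15, where the controls spanned −0.11 to 0.10. Without the digit 0 of the 12 were called and with it 6. Against controls 1 to 5, 5 were higher and 1 lower, and against controls 6 to 10, 1 was higher, Gpr17. The summed level was 715.6 to 845.7 CPM in the controls and 800.5 to 923.9 CPM in S662D mice. Sox10, a factor of the whole oligodendrocyte lineage, held 73.4, 61.1, 65.2, 75.2 and 62.2 CPM against 43.0, 49.7 and 64.0 CPM, and its log2 fold change was 0.37 without the digit and 0.35 with it. The value was 0.54 with controls 1 to 5 (adjusted p 1.99e-06), and 0.21 and not called with controls 6 to 10 (adjusted p 0.137). Of 15 markers of mature oligodendrocytes 0 were called, with 4 higher against controls 1 to 5 and 2 higher and 1 lower with the digit.

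Of 14 endothelial markers 6 were called higher and 1 lower, where 3.35% of all genes tested were called higher and 2.23% lower. Against controls 1 to 5, 6 were called higher (5.64% of all genes were), against controls 6 to 10 and without the digit, 0 were called, and with the digit 8 were called higher and 1 lower. Cldn5, the claudin of the blood-brain barrier, held 43.7, 40.8, 34.3, 39.8 and 30.7 CPM against 21.1, 27.1 and 32.4 CPM, with replicate 5 inside the control range. Its log2 fold change was 0.47 (adjusted p 0.00137, SE 0.08), with 0.44 without the digit and 0.48 with it. With controls 1 to 5 it was 0.58 (adjusted p 0.000186), and with controls 6 to 10 it was 0.36 and not called (adjusted p 0.0809). Flt1 (0.37), Cdh5 (0.34), Tie1 (0.30), Pecam1 (0.28) and Esam (0.27) were the other rises, and Ly6a (−0.20) was the fall. The list median was 0.17, 0.16, 0.18, 0.50 and −0.05 in the 5 S662D libraries and −0.10 to 0.15 in the controls, and 3 were called higher without scaling. Pericyte markers showed 2 calls of 15, Cspg4 and Cd248, with medians of −0.06, 0.16, 0.33, 0.61 and −0.04, and had 1 call against controls 1 to 5, 0 against controls 6 to 10 and 9 with the digit. Replicate 4 stood highest in both vascular lists, and what this contributes to the rises of vascular genes was not tested.

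Choroid plexus markers varied most, although 0 of 14 were called. Their summed level was 224 to 2430 CPM in the controls and 229.5 to 643.4 CPM in S662D mice, and the list median was −1.0. That median was 0.17 with controls 1 to 5 and −1.67 with controls 6 to 10. Of 15 astrocyte, 12 tanycyte, 12 ependymal, 6 pituitary and 6 blood markers tested, 0 were called, with 1 tanycyte marker lower against controls 1 to 5, and with the digit 1 astrocyte and 1 ependymal marker lower and 1 tanycyte marker higher. The pituitary genes Gh, Prl, Fshb and Pou1f1 were too low to be tested. Of 12 neuronal markers 1 was called higher, Slc32a1 (0.23), the vesicular GABA transporter, with 24.9% of its exon bases shared with another gene.

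Ion channels and receptors were read next. Of 80 potassium channel genes, 12 were called higher and 1 lower (16.2% of the list, where 3.35% of all genes tested were called higher and 2.23% lower), with a median of 0.08. Against controls 1 to 5, 12 were called higher and 3 lower, and against controls 6 to 10, 0 were called. Among the rises were Kcnk12 (0.35), Kcnj12 (0.32) and Kcnj11 (0.31). Kcnj11, a pore subunit of the ATP-sensitive channel, held 34.5, 41.4, 38.7, 41.2 and 33.9 CPM against 27.7, 30.5 and 34.7 CPM, and replicates 1 and 5 lay within the control range. The 12 rises and 1 fall became 0 calls without the digit, 27 higher and 4 lower with it (9.97% and 7.12% of all genes), and 7 higher and 2 lower without scaling. Of 22 glutamate receptor genes 3 were called higher and 1 lower (18.2% of the list, where 5.57% of all genes tested were called). Among them Grm4 (0.33), a metabotropic receptor, and Grin2c (0.22), an NMDA receptor subunit, rose, and Gria2 (−0.23), an AMPA receptor subunit, fell. Without the digit these 3 were at 0.02, 0.11 and −0.08, and with it at 0.51, 0.29 and −0.34. The list had 0 calls without the digit and 6 higher and 1 lower with it. It had 3 higher and 2 lower against controls 1 to 5 and 0 calls against controls 6 to 10.

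The class and the level of a gene moved with the library set as well. Of 1746 long non-coding genes 7 were called higher and 43 lower, and of 14760 protein-coding genes 580 and 332. That is 0.401% of the long non-coding genes called higher and 2.86% called in all, against 3.93% and 6.18% of the protein-coding genes. Over all genes tested 3.35% were called higher, 2.23% lower and 5.57% in all. The share of rises among long non-coding genes was thus below that of all genes. Without scaling the long non-coding genes had 5 higher and 59 lower, and the protein-coding genes called were mostly lower (242 higher). Long non-coding genes called with controls 1 to 5 were 11 higher and 68 lower, and with controls 6 to 10, 0 and 1. The median over the long non-coding genes was 0.02, −0.21, −0.12, −0.15 and 0.01 in S662D replicates 1 to 5, where the controls spanned −0.01 to 0.06. The 3 libraries with the digit were lower than every control and the 2 others were not. Snhg11, a neuronal host gene of small nucleolar RNAs, showed this most plainly, with 1531, 867.4, 975.1, 780.1 and 1514 CPM against 1465 to 1706 CPM. Its log2 fold change was −0.51 (adjusted p 0.00489, SE 0.11), with −0.09 without the digit and −0.89 with it. With the genes ordered by mean level and split into 5 equal bins, 0.886% of the lowest bin were called and 12.1% of the highest, where 358 were higher and 79 lower with TMM and 148 and 182 without scaling.

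Genes close to Per2 on chromosome 1 were read as a group. Of 132 genes tested within 10 Mb, Per2 left out, 6 were called higher and 2 lower (6.06%), against 1 and 5 without scaling, with a median log2 fold change of 0.00. The rises were in Gpc1 (0.31, adjusted p 0.00151), a glypican, Sh3bp4 (0.23), Kif1a (0.16), Dner (0.16), Agap1 (0.16) and Arl4c (0.15), and the falls in Gm29374 (−0.77) and Usp40 (−0.27). The share was close to that of all genes, and without the digit 0 of the 132 were called, with 5 higher and 5 lower against controls 1 to 5 and 1 higher and 0 lower against controls 6 to 10.

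The same contrast in fed mice used other animals of both genotypes, with the same 2 library ranges for controls and the same replicate numbers for the digit, so it shares these features but no library. Of the 1007 genes, 268 were called there with the same sign as in fasted mice. Over all genes tested, 4.69% were called in fed mice, 3.12% higher and 1.57% lower. Genes called there with the opposite sign were not counted. The 7 genes outside the clock that held with every library set had fed levels as follows. Mmp14 was at 14.4 ± 1.50 CPM (SD, n = 10) in controls and 24.9 ± 2.81 CPM (SD, n = 5) in S662D mice. Fabp7 was at 12.4 ± 1.58 CPM (SD, n = 10) and 23.7 ± 3.12 CPM (SD, n = 5). Plk5 lay lower in fed S662D mice too, at 7.46 ± 1.96 CPM (SD, n = 5), where fed controls lay at 13.3 ± 1.91 CPM (SD, n = 10).

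For Il34 and Mthfd1l the fed values of −0.44 and −0.41 on the log2 scale were close to the fasted values of −0.41 and −0.37. The test of the difference between fasted and fed mice called 0 genes with edgeR, where 1151 passed 0.05 before adjustment, and 0 with DESeq2. The lowest adjusted p was 0.762. Against controls 1 to 5 alone it called 486 genes and against controls 6 to 10 alone 0, so whether S662D mice differ from controls by another amount when fasted was not settled by these libraries.

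**Figure D4:**
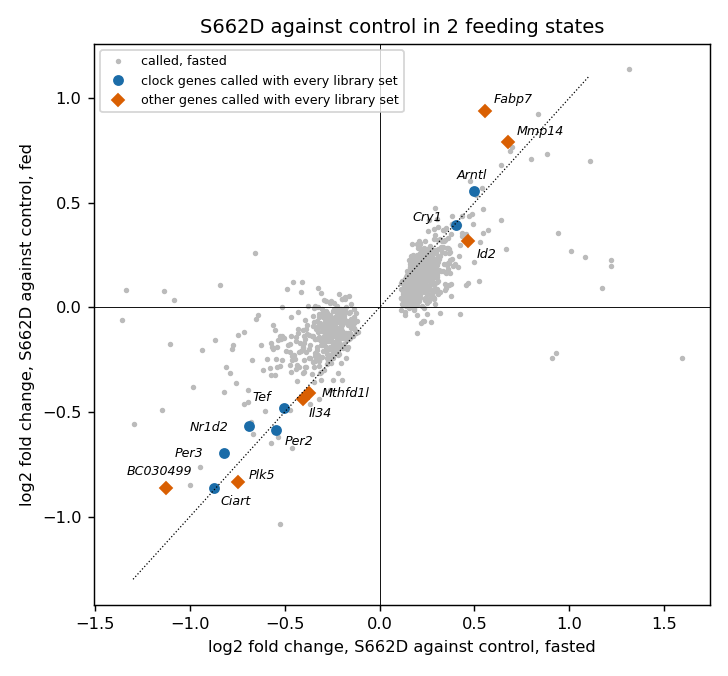
Log2 fold change of S662D against control in fasted mice (x axis) and in fed mice (y axis) for the genes called in fasted mice (grey), with the 7 clock genes (blue circles) and 7 other genes (orange diamonds) called with every library set; the dotted line marks equal values. The 14 genes lie near the line of equal values, Fabp7 above it at 0.94 fed against 0.56 fasted.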

How the data were processed

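Each library has its own deposited table of raw counts. Counting was done with featureCounts 2.0.1 per the file headers, by gene name on GENCODE vM12 (mm10), with no strand option and with all alignments of multi-mapping reads, which inflates genes with near-identical copies and adds reads of overlapping antisense genes. STAR 2.7.10b and Subread are named in the submitters' processing notes. Of 49568 gene names, 0 lines lacked a name.

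Genes were kept with filterByExpr of edgeR 4.0.16 (minimum count 10, R 4.3.3), scaled with TMM, and all 35 libraries entered 1 quasi-likelihood fit with a mean per group, so that the groups share 1 estimate of the spread. The Benjamini-Hochberg adjustment ran over the genes tested, separately for the comparison in fasted mice, the same in fed mice and their difference. The SE of a log2 fold change was taken from the F statistic. Beyond numbered titles the labels do not say how replicates were obtained, so p-values measure the spread between these libraries, which may be technical in part. No pair of libraries agreed within sampling noise (lowest chi-square per degree of freedom 2.76).

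The groups were taken from the labels, but the comparison, the gene lists and the tests were chosen with earlier results of these data known, so a list's direction is a description. Genes are named by a rule: the clock genes called, the 12 largest rises and falls among genes called against both sets of controls, the 5 largest of all called genes (mean of at least 1 CPM), and up to 4 called members of each list. The values of some genes this rule selects are left out. Genes outside this rule, such as the members of a list that were not called, were named after their values were seen. Counts are named uncertain for genes that share 10% or more of their exon bases or 50-base words with another gene (12 of 94 named genes). The scripts were tested on simulated data. The 28 alternatives included DESeq2 1.42.0, limma 3.58.1 voom, other scaling and filters, thinned counts, the library sets, a replicate block and leaving out each library.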

Additional observations from a re-analysis of the deposited data

Results flagged for a closer look

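In 6 of 180 groups of values examined, 1 library stood apart from the rest of its group by Dixon's criterion, which chance meets in about 1 of 20 groups. Control replicate 5 gave 2 of them: it was highest for Nr1d2 at 143.5 CPM, where the other controls spanned 122 to 130.9, and lowest for Lamb2 at 22.44 CPM (others 27.93 to 31.47). Control replicate 2 was lowest for Mthfd1l at 16.14 CPM (others 19.44 to 22.55). Control replicate 6 was highest for Grm4 at 84.89 CPM (others 65.77 to 75.66), and control replicate 7 for Oasl2 at 6.67 CPM (others 2.80 to 4.36). S662D replicate 4 was highest for Tie1 at 13.41 CPM (others 8.70 to 9.59).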

How the results depend on the processing

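None of the 94 named genes changed direction in an alternative that gave it a value, of which there were 28, or 24 for mt-Tk, and 9 kept their call in all 28. The 1007 calls in fasted mice became 291 with only the compared libraries, 384 with limma-voom weights, 10 when a fold of 1.2 was tested, 1680 against controls 1 to 5, 48 against controls 6 to 10, 21 without the S662D libraries that carry the digit, 3148 with these alone, and 20 when the digit was a term. The cause was not tested. Leaving out 1 library gave 154 (without S662D replicate 4) to 1802 (without S662D replicate 1). The fed count of 847 became 1426 with DESeq2, 3378 with limma-voom, 13 at a fold of 1.2, 1741 and 33 against the 2 sets of controls, 16 without the libraries that carry the digit, 3106 with these alone and 23 when it was a term, and leaving out 1 library gave 66 to 1667. For the difference between feeding states, 486 genes were called with controls 1 to 5 and 9 with the libraries that carry the digit, and 0 to 0 when 1 library was left out. Without scaling, 15 named genes lost their call. A replicate block gave 1092 calls in fasted mice, 1124 in fed mice and 0 for the difference. The replicate numbers do not pair the libraries, since same-numbered pairs correlated at −0.02 to 0.10 and 1 of 5 S662D libraries correlated best with its own number. Genes of low level were called least, with 0.886% of the lowest of 5 level bins and 12.1% of the highest. With counts thinned to the shallowest total 994 genes were called, and what depth contributes to the difference between bins was not tested.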

Other observations

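Of all genes tested 5.57% were called, 3.35% higher and 2.23% lower. Of 289 solute carriers 16 were called higher and 7 lower (7.96%), and 4 and 11 without scaling. Without the digit 0 were called, and with it 41 were higher and 16 lower. Against controls 1 to 5, 20 were higher and 11 lower, and against controls 6 to 10, 0 were called. Slc16a4 (−0.48), of the monocarboxylate transporter family, was among the falls, and Slc8a1 (0.31), a sodium-calcium exchanger, among the rises. Of 343 zinc finger genes of the Zfp family 3 were called higher and 10 lower, a share of 3.79% that is below that of all genes. The counts were 2 and 17 without scaling, 9 and 17 against controls 1 to 5 and 0 against controls 6 to 10. They were 0 without the digit, and 20 higher and 35 lower with it. Zfp57, which maintains imprints, was at −0.45 (adjusted p 0.0108), with −0.19 without the digit and −0.67 with it. Of 43 collagens 1 was called higher, Col4a1 (0.23), and 3 lower, Col2a1 (−0.60), Col15a1 and Col27a1 (−0.37), which is 9.3%. Without the digit 0 collagens were called, and with it 2 were higher and 11 lower. Of 12 host genes of small nucleolar RNAs 4 were called lower (33.3%), with 0 called without the digit, 5 lower with it and 0 called against controls 6 to 10. Snhg14, of the imprinted Prader-Willi locus, held 183.3, 89.8, 155.6, 123.1 and 187.8 CPM in S662D replicates 1 to 5 against 174 to 255 CPM in the controls, and the 3 libraries with the digit lay below all controls.

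Of 21 interferon-response genes, Oasl2, an antiviral gene, was called higher at 0.69 (adjusted p 0.00380). It held 5.59, 6.03, 5.08, 7.32 and 7.68 CPM in S662D mice, with 3 of them inside the control range, and had log2 fold changes of 0.76 without the digit, 0.64 with it and 0.75 in fed mice. Of 18 mitochondrial tRNAs tested mt-Tk (1.60) and mt-Tl2 (1.08) were called, and neither was in fed mice, where they were at −0.24 and 0.24. Both were of low level. The mt-Tk counts were 0.111 to 0.377 CPM in the controls and 0.203 to 1.24 CPM in S662D mice. It had no value against either control set alone, and lost the call without the digit and without S662D replicate 2. Against controls 1 to 5 and 6 to 10, mt-Tl2 was not called (edgeR adjusted p 0.120 and 0.0691). Of 79 cytosolic ribosomal protein genes, 82 genes of the nuclear respiratory chain and 15 mitochondrial mRNAs and rRNAs, 0 were called in fasted mice with all libraries. Against controls 1 to 5, 14 genes of the nuclear respiratory chain were called higher, with a list median of 0.11, and against controls 6 to 10, 0 were called, with a median of −0.06. With the digit 7 ribosomal protein genes, 1 respiratory chain gene and 1 mitochondrial mRNA or rRNA were called lower.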
